A study of Mus musculus with 6 samples.

Results

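The Hox cluster genes were described in sorted mouse megakaryocyte-erythroid progenitors. Members were the probe sets whose only gene symbol was a Hox gene of cluster A, B, C or D, which gave 37 of the 39 Hox genes in the RefSeq gene table and 37 of the 19661 genes tested. Hoxb8 shared its probe set with Hoxb7 and was not a member. Each of the 37 genes was represented by a single probe set, and no filter on low values was applied, so every member was tested.

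Fog1+/+ progenitors carried intact Fog1 alleles, and Fog1ki/ki progenitors were homozygous for a Fog1 knock-in. All mice had the B6.129 background, and there were 3 arrays per genotype that the labels call biological replicates. Cells from bone marrow had been gated as negative for lineage markers, Sca1 and CD34, positive for Kit and low for FcgrII/III. The labels give neither the age of the mice, nor the number of animals behind a sample, nor what the knock-in changes, and without the last the targeted transcript could not serve as a check (Zfpm1, which encodes FOG1, measured 7.58 ± 0.22 in Fog1+/+ and 7.63 ± 0.12 in Fog1ki/ki, SD, n = 3 each). The study is generally known to use a FOG1 that has lost its contact with NuRD, a chromatin remodelling complex, and to ask what that contact does in blood cells. If samples of a genotype shared animals, the p-values would measure a spread that is in part technical.

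Hox genes encode homeodomain transcription factors that set position along the body axis. They lie in 4 clusters, and paralogues, numbered 1 to 13, occupy equivalent places in each cluster. Blood stem cells and early progenitors are known for transcribing Hoxa and Hoxb genes, above all Hoxa9 and Hoxb4, and for turning them down as cells mature. HOX proteins bind DNA together with the homeodomain partners PBX and MEIS, MLL complexes keep Hox chromatin active, and Polycomb complexes keep it silent. FOG1 works with GATA1, the main transcription factor of red cell and platelet precursors.

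The data were RMA values on the log2 scale, and precision is limited by the number of arrays. Array medians lay between 6.02 and 6.15, lower quartiles between 4.81 and 4.92 and upper quartiles between 7.61 and 7.68. Replicate 3 of each genotype had low Y-linked values (Eif2s3y at most 3.46 against at least 9.29 elsewhere). Of 10 measured erythroid markers, 8 lay above the upper quartile in Fog1+/+, among them Gata1 (8.56 ± 0.02), Klf1 (8.32 ± 0.05) and the erythropoietin receptor Epor (7.69 ± 0.04, SD, n = 3 each). None of the 12 granulocyte-macrophage progenitor, 8 lymphoid or 9 stromal and endothelial markers did (0 of each). Nor did any of the 7 measured megakaryocyte markers (0 of 7). Of 12 stem cell and 11 mast cell markers 1 each did, Mllt3 and Kit. Probe sets differ in brightness for reasons other than RNA, so Hox levels were read against array quartiles and not against each other.

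Sequences are shown for the genes with the largest differences. Windows of 250 bases before to 50 bases after an annotated start (RefSeq, GRCm38.p6) were at hand for 21 of the 37 genes, as 23 windows. They were searched on both strands for 4 GATA hexamers (the string AGATAA, the string TGATAA, the string AGATAG and the string TGATAG), for the PBX-HOX octamer TGATTNAT and for the MEIS hexamer TGACAG, none of which contains another. Capitals mark a match.
Hoxa10, upstream start, chr6:52240805-52241104, minus strand: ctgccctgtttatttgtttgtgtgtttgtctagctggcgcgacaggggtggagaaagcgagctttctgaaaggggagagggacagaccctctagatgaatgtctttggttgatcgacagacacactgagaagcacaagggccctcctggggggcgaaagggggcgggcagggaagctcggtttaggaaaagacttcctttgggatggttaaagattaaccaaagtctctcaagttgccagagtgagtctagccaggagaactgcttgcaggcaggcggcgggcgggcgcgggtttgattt
Hoxa10, downstream start, chr6:52234890-52235189, minus strand: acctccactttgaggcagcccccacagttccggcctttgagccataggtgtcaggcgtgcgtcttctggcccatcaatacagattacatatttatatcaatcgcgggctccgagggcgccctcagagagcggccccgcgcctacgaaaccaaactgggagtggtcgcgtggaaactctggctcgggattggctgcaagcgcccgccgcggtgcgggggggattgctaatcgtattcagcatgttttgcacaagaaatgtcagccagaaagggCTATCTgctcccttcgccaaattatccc
Hoxb4, chr11:96318017-96318316, plus strand: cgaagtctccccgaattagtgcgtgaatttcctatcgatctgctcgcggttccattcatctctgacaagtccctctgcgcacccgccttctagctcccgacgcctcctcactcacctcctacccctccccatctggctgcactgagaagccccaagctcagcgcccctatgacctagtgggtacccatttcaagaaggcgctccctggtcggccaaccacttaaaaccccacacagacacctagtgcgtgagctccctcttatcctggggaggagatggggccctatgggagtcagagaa
Hoxd1, chr2:74762730-74763029, plus strand: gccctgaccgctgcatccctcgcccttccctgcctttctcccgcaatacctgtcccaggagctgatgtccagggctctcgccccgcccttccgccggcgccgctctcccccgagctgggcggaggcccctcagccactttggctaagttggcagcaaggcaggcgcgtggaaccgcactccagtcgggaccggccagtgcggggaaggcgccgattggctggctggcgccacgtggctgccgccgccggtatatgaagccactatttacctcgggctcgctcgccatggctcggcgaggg

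The only match in these 4 windows was AGATAG on the opposite strand of the downstream Hoxa10 start, within the 50 bases after it. GATA hexamers occurred in 26.1% of the Hox windows (6 of 23) and in 29.8% of all 32851 windows. The PBX-HOX octamer was found in 8.7% of Hox windows (2 of 23) and 3.22% of all windows, and the MEIS hexamer in 8.7% (2 of 23) and 19.2%. A match is a string of letters and not a shown binding site.

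In Fog1+/+ progenitors Hox genes were mostly dim. Of the 37 members, 11 lay below the lower quartile of the arrays, 21 between the lower quartile and the median, 5 between the median and the upper quartile, and 0 above it. The 5 were Hoxa4, Hoxa7, Hoxa9, Hoxb1 and Hoxb3, all from clusters A and B, while 53.2% of all genes tested lay above the median. A sixth, Hoxb7, read 6.04, 6.09 and 5.96 in Fog1+/+, with a mean of 6.03 just below the median (6.05). For scale, the median Fog1+/+ level of 1012 olfactory receptor genes, not known for transcription in blood, was 4.23 and their 95th percentile was 6.01. Those 6 Hox genes lay above that percentile. On the low-Y arrays, probe sets of the Y-linked genes Uty and Kdm5d still read 3.85 to 3.96 and 5.12 to 5.32. A reading near 5 is therefore also given by a probe set whose gene is at most weakly transcribed, and no detection test was available for single genes.

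**Figure D1:**
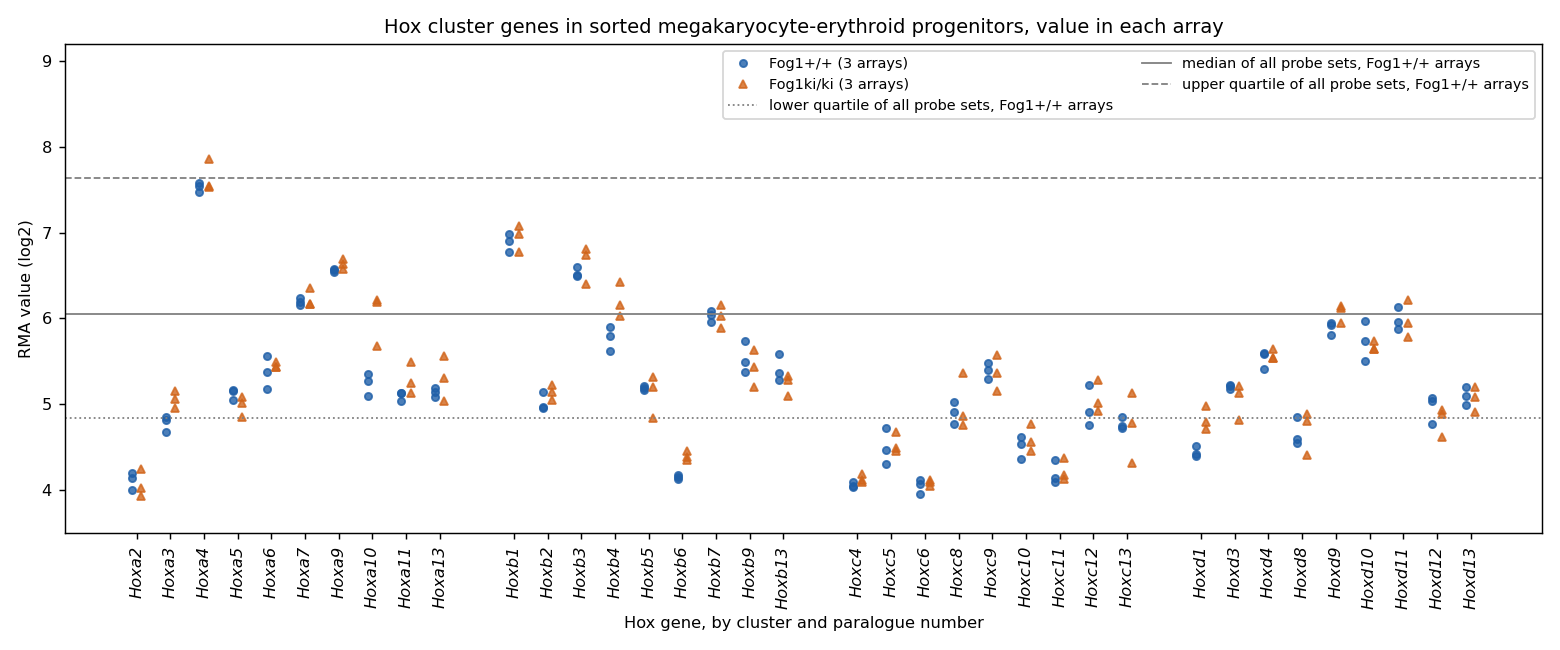
RMA values (log2) of the 37 Hox genes in every array, ordered by cluster and paralogue number, with Fog1+/+ arrays as circles and Fog1ki/ki arrays as triangles. Grey lines mark the lower quartile (4.84), median (6.05) and upper quartile (7.64) of all probe sets in Fog1+/+, and Hoxa4, Hoxa7, Hoxa9, Hoxb1 and Hoxb3 are the members whose Fog1+/+ means lie above the median.

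Cluster C was the dimmest by this reading. Of its 9 members, 6 lay below the lower quartile and 0 above the median. In cluster A, 2 of 10 lay below the lower quartile and 3 above the median, in cluster B 1 and 2 of 9, and in cluster D 2 and 0 of 9. By place in the cluster, 2 of 7 anterior genes (paralogues 1 to 3), 2 of 14 central genes (4 to 8) and 1 of 16 posterior genes (9 to 13) lay above the median. Below the lower quartile lay 3 of the 7 anterior, 5 of the 14 central and 3 of the 16 posterior genes. Between the lower quartile and the median lay 2 anterior, 7 central and 12 posterior genes. Anterior genes thus had the largest share at both the bright and the dim end, so these counts gave no order of brightness by place.

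Hoxa9, a driver of progenitor self-renewal and of myeloid leukaemia, read 6.54, 6.58 and 6.57 in Fog1+/+ and 6.69, 6.63 and 6.58 in Fog1ki/ki. The genotypes touched at 6.58. Its log2 difference was 0.07 with a 95% interval of -0.12 to 0.26 (limma adjusted p = 0.863). Hoxa7, another gene raised in MLL leukaemia, read 6.19, 6.24 and 6.16 in Fog1+/+ and 6.17, 6.17 and 6.36 in Fog1ki/ki, with overlapping genotypes. Hoxa4 read 7.54, 7.48 and 7.58 in Fog1+/+ and 7.55, 7.53 and 7.86 in Fog1ki/ki, so that a single Fog1ki/ki array stood above the rest. Their log2 differences were 0.04 and 0.11 (limma adjusted p = 0.945 and 0.818).

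In cluster B, Hoxb3 read 6.49, 6.60 and 6.51 in Fog1+/+ and 6.40, 6.74 and 6.81 in Fog1ki/ki. Hoxb1, best known from hindbrain segments, read 6.98, 6.90 and 6.77 in Fog1+/+ and 6.78, 6.98 and 7.08 in Fog1ki/ki. Both overlapped between genotypes. The log2 differences were 0.12 for Hoxb3 (95% interval -0.16 to 0.39) and 0.06 for Hoxb1 (-0.18 to 0.31). Among the 5 brighter members, each 95% interval thus ended below a log2 difference of 0.40. None passed the test (0 of 5 in limma, against 0.773% of all genes). At an unadjusted p under 0.05 there were 0 of 5, against 9.57% of all genes.

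No Hox gene rose or fell by the threshold used, a limma adjusted p under 0.05 over all genes tested (0 of 37, against 0.773% of all genes). At an unadjusted p under 0.05, 5 Hox genes were higher in Fog1ki/ki and 0 were lower, against 9.57% of all genes, 4.99% higher and 4.58% lower. The same 5 were the members whose genotypes did not overlap with Fog1ki/ki higher (8.31% of all genes), and 0 lay the other way (6.53% of all genes, 14.8% in both directions). They were Hoxa10, Hoxd1, Hoxb4, Hoxa3 and Hoxb6, and they came from 3 of the 4 clusters. Over the 37 members the median log2 difference was 0.05, beside 0.02 over all genes tested. It turned to -0.0067 with arrays centred on their medians and to -0.0028 with quantile normalization repeated, where the median over all genes was -0.03 and 0.0011. It was above 0 in 24 members and below 0 in 13, and 56.3% of all genes were above 0. These samples were bulk, so fewer cells of a type and less RNA per cell cannot be told apart.

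**Figure D2:**
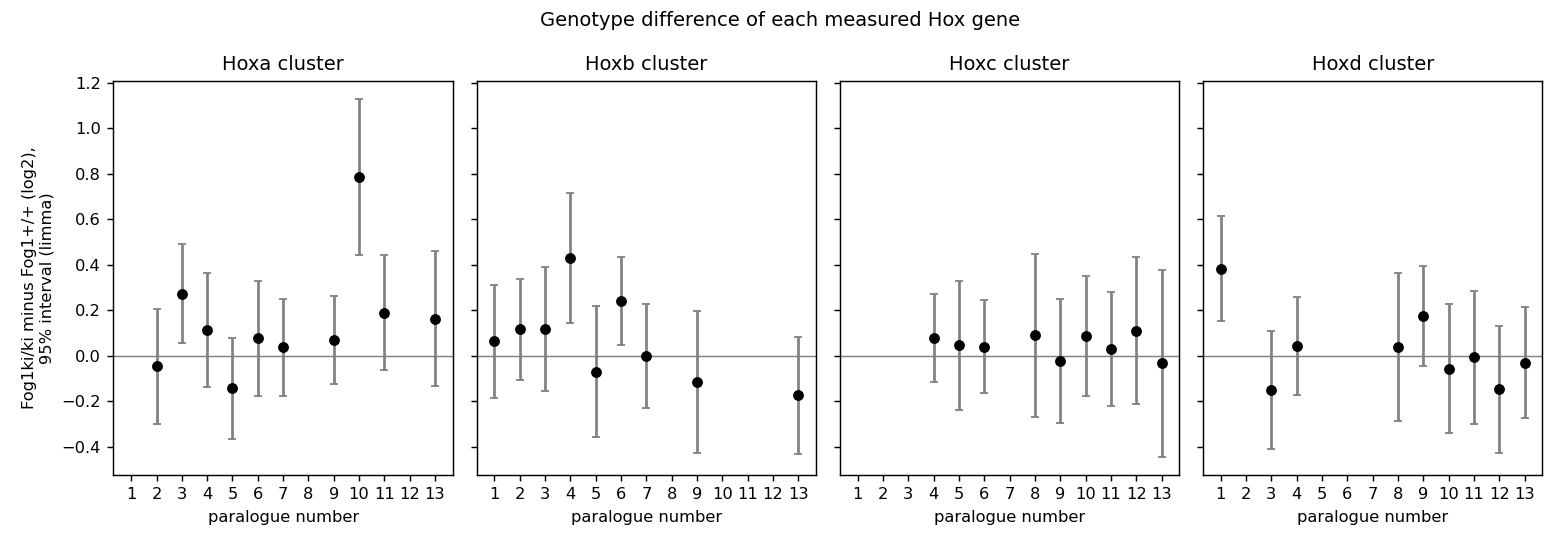
Log2 difference of Fog1ki/ki minus Fog1+/+ (points) with limma's 95% interval (bars) for each measured Hox gene, by cluster and paralogue number. Hoxa10 (0.79) stands highest, with an interval from 0.44 to 1.13, and the lowest point is Hoxb13 (-0.17).

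Hoxa10, an Abdominal-B-type gene whose forced expression is known to disturb megakaryocyte and red cell development, had the largest difference. It read 5.35, 5.27 and 5.10 in Fog1+/+ and 5.68, 6.21 and 6.19 in Fog1ki/ki. Every Fog1ki/ki array lay above every Fog1+/+ array, and Fog1ki/ki replicate 1 was well below the other two of its genotype. The means were 5.24 ± 0.13 and 6.03 ± 0.30 (SD, n = 3 each), a 1.73-fold higher level in Fog1ki/ki. The log2 difference was 0.79 (SE 0.15) and missed the threshold (limma adjusted p = 0.063). It passed without Fog1ki/ki replicate 1 (0.96, limma adjusted p = 0.0112), with array weights (0.0166), with quantile normalization repeated (0.0435) and with the dimmest genes left out (0.0478). Without any other single array it did not pass (adjusted p from 0.161 to 0.271). Nor did it pass without both low-Y arrays (0.635, limma adjusted p = 0.565) or with a term for them (0.0992). The difference lay between 0.635 and 0.96 in the 15 alternatives run, so its size varied less than its call. In the RefSeq table the span of Hoxa10 overlaps the long noncoding RNA gene Gm52902, so its probe set may not be specific to a single transcript.

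**Figure D3:**
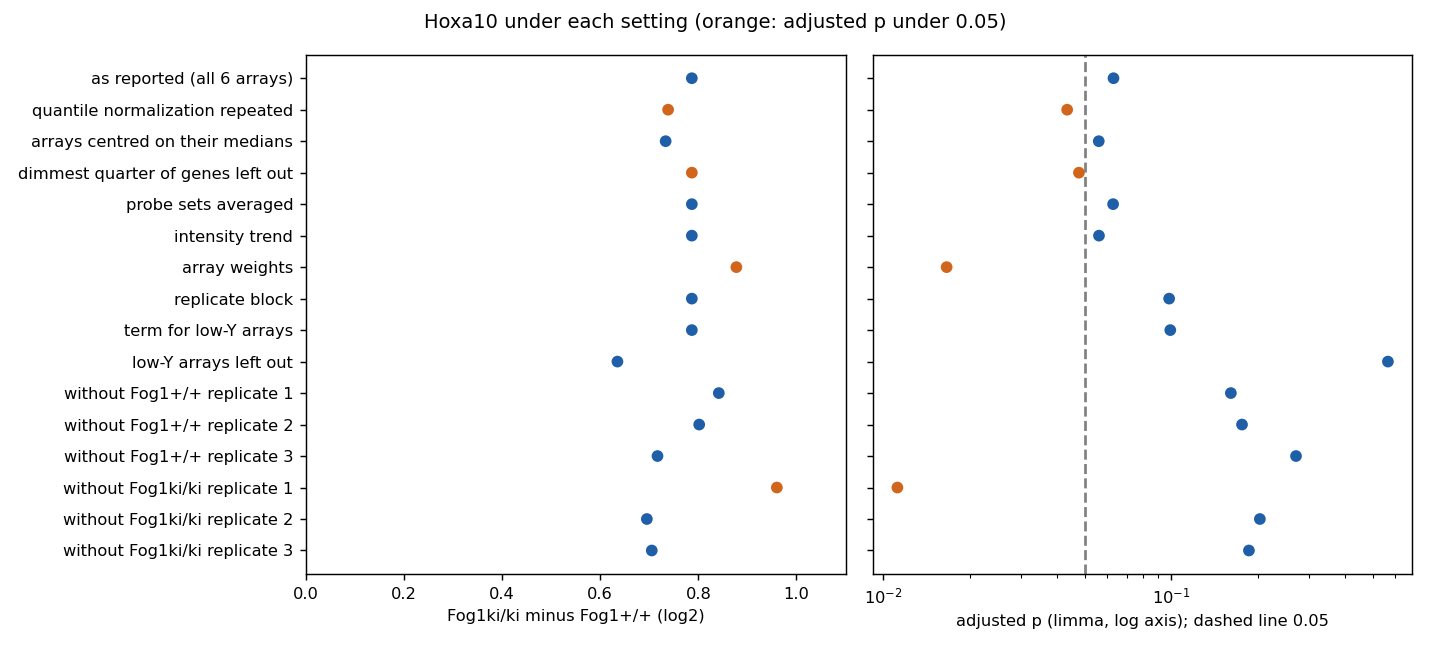
Hoxa10 under each setting, with the log2 difference of Fog1ki/ki minus Fog1+/+ on the left and the limma adjusted p on a log axis on the right (dashed line at 0.05). Orange points are the 4 alternatives past the threshold, and the difference stays above 0.6 in all settings shown.

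The genes on both sides of Hoxa10 differed by less. Hoxa11, a gene of limb, kidney and uterus, read 5.04, 5.13 and 5.13 in Fog1+/+ and 5.13, 5.25 and 5.49 in Fog1ki/ki, touching at 5.13. Its log2 difference was 0.19 with an interval of -0.06 to 0.44, and that of Hoxa9 was 0.07, as above. Mir196b, the microRNA gene beside Hoxa10, read 5.81, 5.78 and 5.87 in Fog1+/+ and 5.93, 6.09 and 5.89 in Fog1ki/ki, with no overlap and a log2 difference of 0.15 (limma adjusted p = 0.683). Hoxa13 had a difference of 0.16 (SE 0.13). The difference between Hoxa10 and its neighbours was not tested. The other paralogue 10 genes, Hoxc10 and Hoxd10, had log2 differences of 0.09 and -0.06.

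Hoxd1, an anterior gene of cluster D, read 4.42, 4.40 and 4.51 in Fog1+/+ and 4.98, 4.71 and 4.79 in Fog1ki/ki. All Fog1ki/ki arrays were higher, at a level where the Fog1+/+ mean lay below the lower quartile. The difference was 0.38 (SE 0.10, limma adjusted p = 0.196). Hoxb1, the other measured paralogue 1 gene, differed by 0.06.

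Hoxb4, known for expanding blood stem cells when overexpressed, read 5.80, 5.90 and 5.62 in Fog1+/+ and 6.16, 6.42 and 6.03 in Fog1ki/ki. The groups did not overlap, with means of 5.77 ± 0.14 and 6.20 ± 0.20 (SD, n = 3 each), on either side of the array median. The log2 difference was 0.43 (SE 0.13, limma adjusted p = 0.255), or 1.35-fold. All measured paralogue 4 genes had differences above 0, namely Hoxa4 at 0.11, Hoxc4 at 0.08 and Hoxd4 at 0.04 beside Hoxb4. Differences were above 0 in 56.3% of all genes. None of the 4 passed in limma (0 of 4, against 0.773% of all genes). At an unadjusted p under 0.05 there was 1 of 4, against 9.57% of all genes. In the RefSeq table Hoxb4 lies within the span of Hoxb3, whose own difference was 0.12.

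Hoxa3, which patterns the thymus and pharynx, read 4.82, 4.85 and 4.68 in Fog1+/+ and 5.06, 4.96 and 5.15 in Fog1ki/ki. Hoxb6 read 4.15, 4.13 and 4.18 in Fog1+/+ and 4.35, 4.38 and 4.45 in Fog1ki/ki. In both genes all Fog1ki/ki arrays were higher by a small amount, from a Fog1+/+ level below the lower quartile. The log2 differences were 0.27 (SE 0.10) and 0.24 (SE 0.09), with limma adjusted p = 0.371 and 0.373. The span of Hoxa3 in the RefSeq table covers Hoxa4, Hoxa5 and Hoxa6, and that of Hoxb6 overlaps the antisense gene Hoxb5os. These probe sets may therefore not be specific to a single transcript. Other members, among them Hoxa10, Hoxa4, Hoxb3 and Hoxb4, had overlapping spans too.

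**Figure D4:**
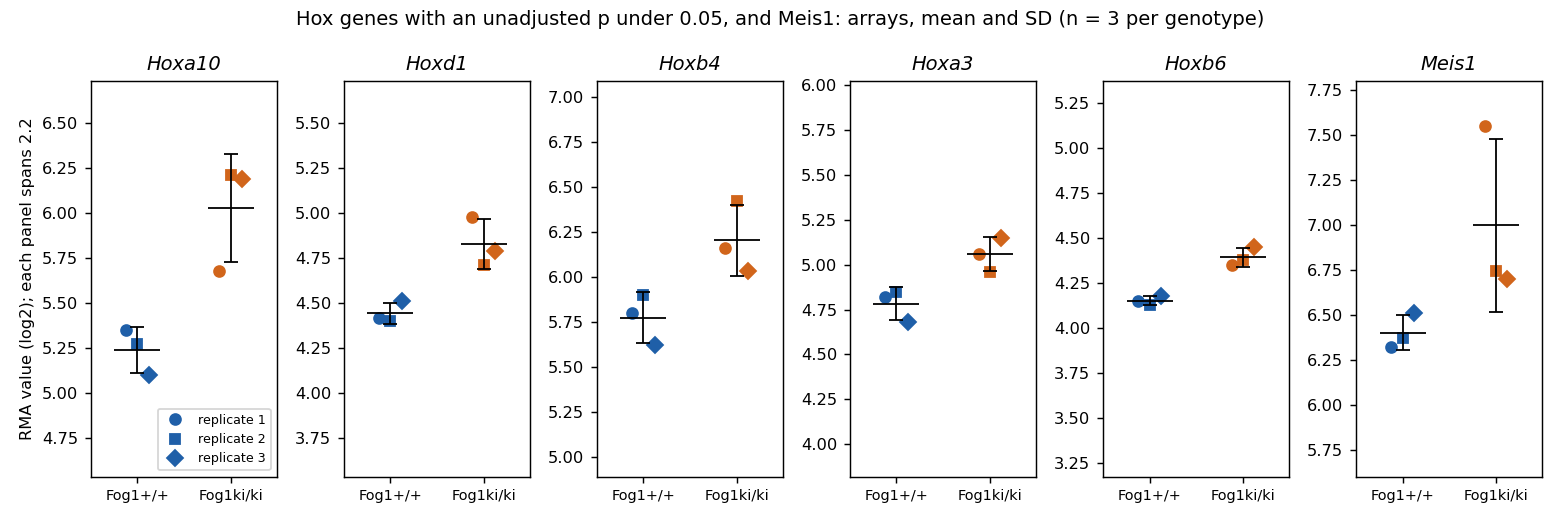
RMA values (log2) of the 5 Hox genes with an unadjusted p under 0.05, and of their partner gene Meis1, in each array, with mean and SD (n = 3 per genotype, replicates 1 to 3 as circle, square and diamond). Each panel spans the same range, and Fog1ki/ki replicate 1 is the lowest Fog1ki/ki array for Hoxa10 and the highest for Meis1 and Hoxd1.

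The largest decreases in the point estimates were small. Hoxb13, a prostate and tail gene, read 5.36, 5.59 and 5.28 in Fog1+/+ and 5.10, 5.28 and 5.33 in Fog1ki/ki. Hoxd3 read 5.22, 5.21 and 5.18 in Fog1+/+ and 4.82, 5.13 and 5.21 in Fog1ki/ki. Hoxd12 read 4.77, 5.07 and 5.04 in Fog1+/+ and 4.62, 4.89 and 4.93 in Fog1ki/ki. The genotypes overlapped in each, and the log2 differences were -0.17, -0.15 and -0.15, with limma adjusted p between 0.698 and 0.778.

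Of the 37 genes, 32 had a log2 difference smaller than 0.2 in size, beside 15847 of all 19661 genes. The other 5 were higher by at least 0.2, as were 10.3% of all genes. The 95% intervals of 36 members lay within a 2-fold change in either direction, as they did for 98.2% of all genes, and Hoxa10 was the exception. For 34 members they lay within 1.5-fold (17553 of all 19661 genes), the other members being Hoxa10, Hoxb4 and Hoxd1. A failed test does not show that the genotypes were alike, and RMA compresses the differences of dim probe sets, so these limits hold for the RMA values.

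By cluster, the median log2 difference was 0.10 in A, 0.06 in B, 0.05 in C and -0.01 in D. The members of cluster C ranged narrowly, from -0.03 to 0.11, and had the dimmest probe sets. By place it was 0.12 in the 7 anterior, 0.05 in the 14 central and 0.01 in the 16 posterior genes. The per-array mean over the 10 Hoxa members lay between 5.505 and 5.525 on the log2 scale in Fog1+/+ and between 5.60 and 5.70 in Fog1ki/ki. These means include Hoxa10, whose difference of 0.79 was the largest of the 10. Medians of all probe sets were 6.05, 6.06 and 6.05 in Fog1+/+ and 6.02, 6.12 and 6.15 in Fog1ki/ki. For the 9 Hoxb members the per-array mean lay between 5.56 and 5.68 and between 5.53 and 5.76, and for clusters C and D the ranges overlapped as well. No test was made on these averages.

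MicroRNAs encoded within the clusters were read by probe sets of their own. They are shown because their seed (bases 2 to 8, in capitals) groups them into families that are known to target Hox transcripts. The letters are from RefSeq (GRCm38.p6).
mmu-miR-196b-5p, Hoxa cluster: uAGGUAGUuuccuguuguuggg
mmu-miR-196a-5p, Hoxb and Hoxc clusters: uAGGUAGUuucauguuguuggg
mmu-miR-10a-5p, Hoxb cluster: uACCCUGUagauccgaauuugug
mmu-miR-10b-5p, Hoxd cluster: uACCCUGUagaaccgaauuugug

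Within each family the seed is shared and a single base differs, counted from the 5′ end (A12C from miR-196a to miR-196b, U12A from miR-10a to miR-10b). Among the 9 measured noncoding genes of the clusters 0 passed in limma (0.773% of all genes). At an unadjusted p under 0.05 there were 0 as well (9.57% of all genes). Mir196b, given above, lay between the lower quartile and the median. Mir196a-1 and Mir196a-2 had log2 differences of 0.08 and -0.01, and Mir10a and Mir10b of -0.04 and 0.06, all 4 from Fog1+/+ levels below the lower quartile. The antisense gene Hoxd3os1 read 5.08, 5.07 and 5.05 in Fog1+/+ and 4.93, 4.89 and 4.88 in Fog1ki/ki, without overlap and with a log2 difference of -0.17 (limma adjusted p = 0.593). Total RNA was amplified and arrayed, and whether these probe sets read the mature microRNA or its precursor is not stated.

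The genes that flank the clusters did not pass either. Of 17 measured genes of a list written from general knowledge, 0 passed in limma (0.773% of all genes). At an unadjusted p under 0.05, 1 was lower and 0 higher (4.58% and 4.99% of all genes). That gene was Skap2, a signalling adaptor beside the Hoxa cluster, at 8.17, 8.03 and 7.96 in Fog1+/+ and 7.87, 7.91 and 7.65 in Fog1ki/ki, a log2 difference of -0.24 (limma adjusted p = 0.52). Taking instead the 3 nearest protein-coding genes on each side of every cluster, 18 of 24 were measured, 0 passed and the same gene had the smallest p. The homeobox genes at the posterior ends of clusters A and D, Evx1 and Evx2, had log2 differences of -0.06 and -0.18.

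Among 11 measured partner genes of HOX proteins, 0 passed in limma (0.773% of all genes), while the unadjusted p was under 0.05 for 2 with a higher and 0 with a lower mean in Fog1ki/ki (4.99% and 4.58% of all genes). Meis1, the partner of Hoxa9 in leukaemia, read 6.32, 6.37 and 6.51 in Fog1+/+ and 7.55, 6.74 and 6.70 in Fog1ki/ki. The arrays did not overlap, but Fog1ki/ki replicate 1 stood apart, and the difference of 0.60 (SE 0.21, limma adjusted p = 0.358) was 0.32 without it. Meis3 read 6.03, 6.28 and 6.07 in Fog1+/+ and 6.38, 6.29 and 6.51 in Fog1ki/ki, a difference of 0.27 (limma adjusted p = 0.459). The PBX genes Pbx2, Pbx3 and Pbx4 were measured, each with a difference of 0.08.

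Of 21 activators of Hox transcription, 0 passed in limma (0.773% of all genes), and 3 were lower and 0 higher at an unadjusted p under 0.05 (4.58% and 4.99% of all genes). The 3 were Mllt3, a reader protein of the elongation complex (10.02 ± 0.06 against 9.54 ± 0.15, SD, n = 3 each, log2 difference -0.48, limma adjusted p = 0.104), Aff4 of the same complex (-0.38) and the MLL complex subunit Dpy30 (-0.24). In each, all Fog1ki/ki arrays lay below all Fog1+/+ arrays (6.53% of all genes). The MLL gene itself, Kmt2a, read 9.84, 9.82 and 9.80 in Fog1+/+ and 9.88, 9.71 and 9.82 in Fog1ki/ki, a difference of -0.02. Men1 and Dot1l, which encode MLL's partner menin and a histone H3 methyltransferase, had differences of 0.06 and 0.02.

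Of 28 measured Polycomb genes, 0 passed in limma (0.773% of all genes), and the unadjusted p was under 0.05 for 1 with a higher and 3 with a lower mean in Fog1ki/ki (4.99% and 4.58% of all genes). Phf19, an accessory subunit of the methylating complex, stood at a log2 difference of 0.49, with limma's adjusted p = 0.207. Scmh1 stood at -0.38, the deubiquitinase gene Bap1 at -0.45 and Pcgf3 at -0.55, with limma adjusted p between 0.314 and 0.327. The core genes Ezh2 (11.64 ± 0.07 against 11.61 ± 0.05) and Eed (10.36 ± 0.09 against 10.31 ± 0.08, SD, n = 3 each) had differences of -0.03 and -0.06. The 95% interval of Ezh2 ran from -0.23 to 0.17.

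Marker levels of other cell types were read beside these values, and no association between the 2 was tested. The per-array mean of the log2 values of 11 mast cell markers lay between 5.22 and 5.27 in Fog1+/+ and between 5.67 and 6.25 in Fog1ki/ki, with 6 of the 11 below the lower quartile in Fog1+/+ and 1 past the threshold. That gene was Ms4a2 (9.15, 8.64 and 7.80 in Fog1ki/ki), and it was highest in Fog1ki/ki replicate 1, where Hoxa10 was lowest of its genotype and Meis1 highest. The mast cell list was uneven, with log2 differences of 3.79 for Ms4a2, 1.91 for Fcer1a and 1.27 for Gzmb. Those of Hdc and Mrgprb2 were 0.06, that of Kit was -0.38, and the list median was 0.21. For 7 megakaryocyte markers the ranges of the per-array mean were 6.16 to 6.26 and 6.39 to 6.61. That list was uneven too, with log2 differences of 0.97 for Pf4, 0.31 for Itga2b, 0.28 for Rab27b and 0.15 for Gp9. Those of Itgb3, Vwf and Ppbp were 0.06, 0.05 and -0.04. For 10 erythroid markers the ranges were 9.26 to 9.33 and 9.04 to 9.23. For 12 stem cell markers, Meis1 and Mllt3 among them, they were 5.82 to 5.86 and 5.84 to 5.91, and for 12 granulocyte-macrophage progenitor markers 5.59 to 5.63 and 5.52 to 5.74. The 8 lymphoid markers spanned 5.02 to 5.08 and 4.98 to 5.15 and the 9 stromal and endothelial ones 5.33 to 5.37 and 5.26 to 5.42. The mean of the 4 measured genes of the gate spanned 6.15 to 6.20 and 6.12 to 6.25, but its members differed in opposite directions. Kit read 10.26, 10.30 and 10.30 in Fog1+/+ and 10.05, 9.72 and 9.96 in Fog1ki/ki, a log2 difference of -0.38 (limma adjusted p = 0.232). Fcgr2b, an Fc gamma receptor gene, read 4.71, 4.73 and 4.75 in Fog1+/+ and 5.07, 4.98 and 5.02 in Fog1ki/ki, a log2 difference of 0.29 (limma adjusted p = 0.248). Neither gene overlapped between genotypes. Outside the mast cell list, 0 members of these lists passed in limma (0.773% of all genes). The part of such cells in the Hox values was not tested.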

How the data were processed

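Total RNA of 6 samples was amplified with the WT-Ovation Pico system and hybridised to 1-colour arrays, per the labels' protocols. Judged by their range, the deposited values were log2, and the submitters' processing notes name RMA (background correction, quantile normalization, summary per probe set), with software and settings not given in the sources used here. The platform annotation gave 1 gene for 20777 of 25668 probe sets, several for 232 and none for 4659. The probe set with the highest mean represented a gene, without a filter. Genotypes were compared over 19661 genes with limma 3.58.1 in R 4.3.3 (genotype as the only term, two-sided, Benjamini-Hochberg adjusted p under 0.05), and 152 genes passed. An exact permutation test of 3 against 3 cannot go below p = 0.1. The fit was tested on simulated data. Members and lists were chosen with earlier results of these data known, and the olfactory receptor reference after the Hox values were seen. Every Hox gene could be named. Values per array are given for those with an unadjusted p under 0.05 or a Fog1+/+ mean above the array median, and for the 3 largest differences each way. Lists name up to 4 members with an unadjusted p under 0.05, or else the smallest p, and other genes were named after their values were seen. Replicate numbers did not pair all arrays (correlations of deviations between same-numbered arrays 0.0683, -0.0076 and 0.1276 over genes, the last for the low-Y arrays). Alternatives were other normalizations, filters, summaries, variance models, a block, Y-linked level and leaving out arrays. Python 3.11.15, pandas 2.3.3 and matplotlib 3.10.9 were used.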

Additional observations from a re-analysis of the deposited data

How the results depend on the processing

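No Hox gene passed in 11 of 15 alternatives, and 1, Hoxa10, passed with quantile normalization repeated, with the dimmest genes left out, with array weights and without Fog1ki/ki replicate 1 (0 to 1 with single arrays left out). The median Hox log2 difference was -0.0067 with arrays centred on their medians, -0.0028 with quantile normalization repeated and 0.0067 to 0.0883 with single arrays left out. In all, 24 genes passed without both low-Y arrays and 60 to 134 with single arrays left out (60, 83 and 60 without Fog1+/+ replicate 1, 2 and 3, and 82 without Fog1ki/ki replicate 2), where fewer samples were fitted. The difference of Hoxa7 turned to -0.0208 with quantile normalization repeated, -0.0167 with arrays centred, -0.045 without low-Y arrays and -0.0267 without Fog1ki/ki replicate 3 (up to 0.0683 with single arrays left out), and that of Hoxb1 to -0.06 and -0.0033 in the last pair of settings (up to 0.1467); the cause was not tested. Above the array median in Fog1+/+ lay 1 Hox gene when the median was taken over the genes left after the dimmest were dropped, 0 when the upper quartile replaced it, and 5 to 6 with single arrays left out. The replicate block left 133 genes past the threshold, 108 of them among the 152, with 0 Hox genes (Hoxa10 limma adjusted p = 0.0983). It changed the call of 0 of 25 named genes. No label pairs same-numbered arrays, but replicate 3 of both genotypes also had low Y-linked values, so the block partly follows the Y-linked level. With the dimmest genes left out, 15 Hox genes left the test.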

Other observations

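Other homeobox genes known from blood cells were read beside the clusters. Of 11 measured, 0 passed in limma (0.773% of all genes). At an unadjusted p under 0.05, 1 was lower and 0 higher (4.58% and 4.99% of all genes). That gene was Satb1, a chromatin organiser, at 6.15, 5.87 and 6.23 in Fog1+/+ and 5.75, 5.92 and 5.74 in Fog1ki/ki, with overlapping genotypes and a log2 difference of -0.28 (limma adjusted p = 0.492). Hhex, a regulator of blood and endothelial precursors, read 9.37, 8.78 and 9.26 in Fog1+/+ and 9.26, 8.88 and 9.14 in Fog1ki/ki, above the upper quartile of every array and with a difference of -0.04. Cdx1, Cdx2 and Cdx4, which act upstream of Hox genes in embryos, had differences of 0.10, 0.11 and 0.02, with Cdx4 at 3.57 ± 0.10 in Fog1+/+ (SD, n = 3), below the lower quartile. The probe set shared by Hoxb8 and Hoxb7, which entered no comparison, read 4.63, 4.77 and 4.65 in Fog1+/+ and 4.74, 4.52 and 4.97 in Fog1ki/ki.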
